A study of Mus musculus with 12 samples.

Results

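The kinesin motor genes described here were every row whose symbol was Kif followed by a number, with or without a letter, leaving out Kif3a, Kif3b and Kif17. This gave 35 genes, of which 34 were listed in both tables, and Kif28 only in the testis table. They stood among 51826 entries of the sperm table and 23502 entries of the testis table. By known role, 12 were grouped as spindle kinesins, 11 as cargo transport kinesins and 6 as kinesins of cilia and flagella, and the other 6 were kept apart.

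Kinesins are motor proteins that use ATP to walk along microtubules or to take microtubule ends apart. Some carry vesicles and organelles through the cytoplasm, some build and drive the spindle that separates chromosomes, and others work in cilia and in the sperm tail, where the axoneme is a fixed array of microtubules. Male germ cells use all of these roles in turn, first during divisions of spermatogonia and spermatocytes and later when round spermatids reshape into flagellated sperm.

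RNA-seq was performed on 12 libraries in 4 groups of 3 replicates. Sperm of P56 mice came from the cauda epididymis of WT males and of Xap5l KO males, a global knockout made with CRISPR/Cas9 on the C57BL/6J background. Testes of P16 mice came from WT males and from Xap5 cKO males, in which a floxed Xap5 allele was removed by a Stra8-GFPCre knockin. Stra8 is switched on in male germ cells, so the somatic cells of the whole testis kept the allele. The labels call the controls WT, and the paper elsewhere describes controls of the cKO as floxed males. The study asked which genes of cilium assembly depend on Xap5l in sperm and on Xap5 in spermatogenesis. The sperm libraries held 38881197 to 52308452 counts and the testis libraries 32251198 to 36759054. The tables were made apart, so each tissue was tested alone and no test was run between tissues.

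Both targeted genes were lower in the libraries labelled knockout. Xap5l, listed as Fam50b, had 419 to 574 counts in WT sperm and 8 to 23 in Xap5l KO sperm. Xap5, listed as Fam50a, had counts of 819, 811 and 988 in WT testes against 673, 616 and 651 in Xap5 cKO testes, a difference of -0.33 on the log2 scale (adjusted p = 0.0495 by edgeR's quasi-likelihood test). Fam50b was also low in the cKO testes, with counts of 532, 539 and 197 in WT against 6, 0 and 7, and Fam50a was lower in Xap5l KO sperm, with counts of 548, 705 and 689 in WT against 296, 487 and 649 (-0.76 on the log2 scale, adjusted p = 0.0393 by the same test). All 8 sperm and elongating spermatid markers were detected in sperm, but so were markers of leukocytes, red blood cells and epididymal epithelium, and their summed levels are given with the results. In P16 testes Prm2, Smcp and Spaca7, markers of spermatids, were at 0 in every library. Other listed spermatid markers were detected there. Spaca1 had 201 to 370 counts and Gapdhs 145 to 176, and Izumo1 had 32 to 54 in WT and 5 to 23 in cKO libraries. In such bulk samples, fewer cells of a type and less RNA per cell cannot be told apart.

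The level of each kinesin gene was compared with that of others as counts scaled to library size and divided by the length of exon (CPM per kb). In WT sperm a pair of microtubule depolymerases and a flagellar motor stood highest. Kif2c, which takes apart microtubule ends at centromeres, had 74.9 ± 21.4 CPM per kb (SD, n = 3), or 40.3% of the sum over the kinesin genes. Kif2b, a close relative that works at kinetochores, and Kif9, a motor of the sperm tail, followed with 26.7 ± 8.19 and 26.7 ± 13.5 CPM per kb, which did not differ beyond their spread. Kif27, a kinesin of motile cilia, and Kif1c, a vesicle motor, came next with 8.92 ± 2.5 and 8.81 ± 1.43 CPM per kb, again within their spread. The remaining genes lay between 6.9 ± 1.74 CPM per kb for Kif21b and 0.0851 ± 0.0151 for Kif14 among the genes tested.

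In WT testes the order was different. Kif5b, a heavy chain of conventional kinesin, led with 41.1 ± 4.44 CPM per kb (SD, n = 3), which was 13.9% of the sum. Kif20a, needed for cytokinesis, had 28.7 ± 2.02, Kif21a, which restrains microtubule growth, had 24.9 ± 1.85, and Kif2a, a depolymerase of spindle poles and neurons, had 22 ± 2.1 CPM per kb. Kif21a overlapped both Kif20a and Kif2a in its range of mean ± SD, and Kif2c followed with 12.5 ± 0.733 CPM per kb. This order and its sum leave out the entries that list Kif11, Kif1b and Kif1c again with an added number. Those entries had 6.14, 3.69 and 3.94 CPM per kb in WT testes, beside 8.86, 4.94 and 9.67 for the main entries. With them added, Kif11 and Kif1c would stand higher. Kif2b, near the top in sperm, had 0.137 ± 0.0528 CPM per kb in WT testes, below all tested kinesin genes except Kif26b and Kif28.

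**Figure D1:**
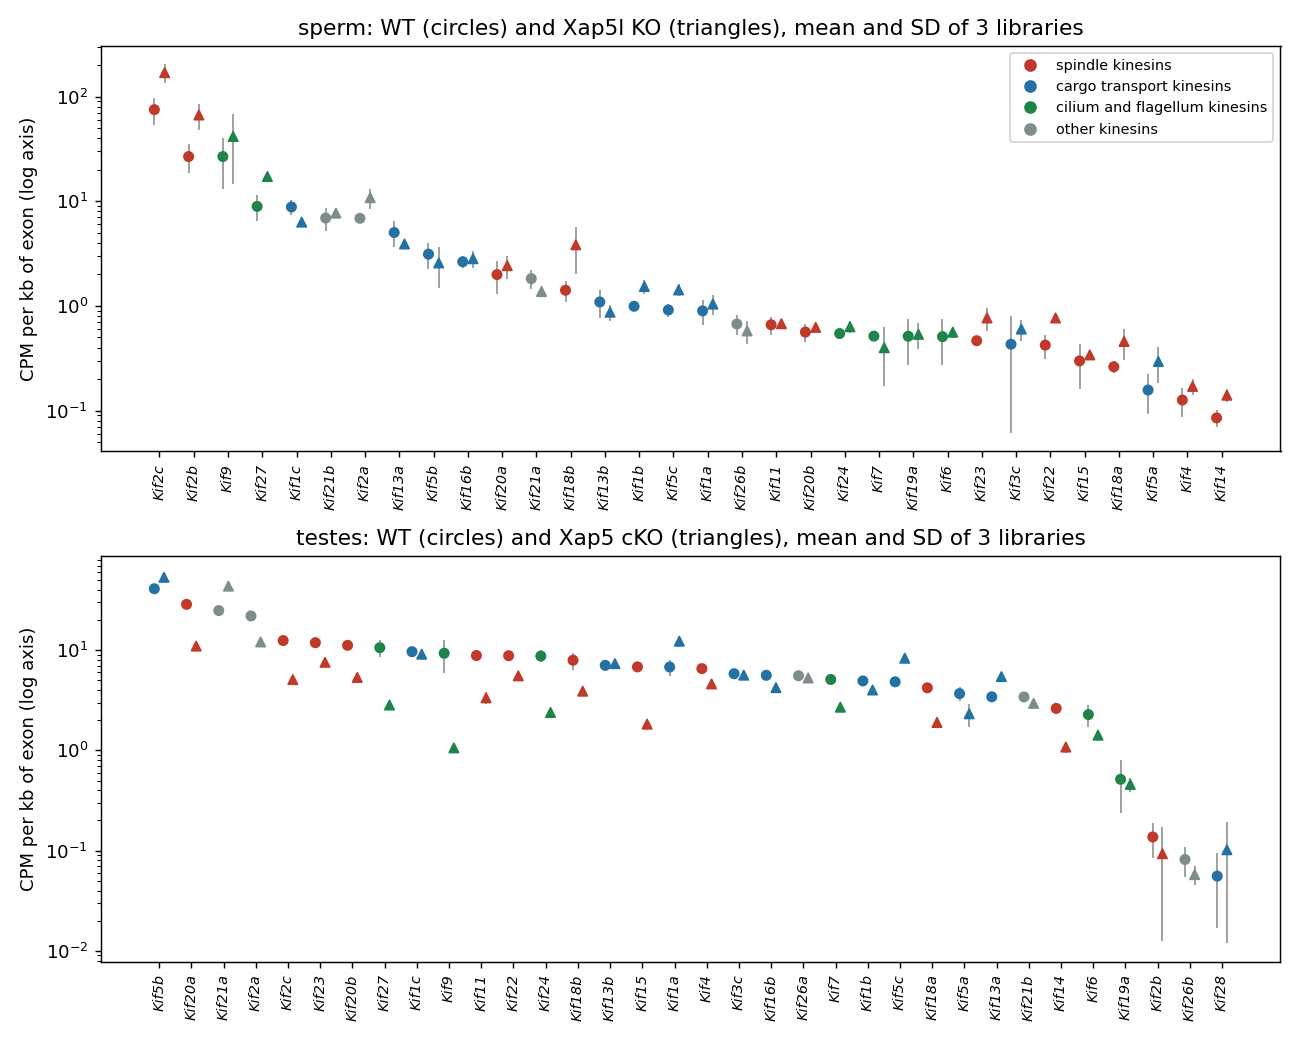
Level of each tested kinesin gene in WT (circles) and knockout (triangles) libraries, as CPM per kb of exon on a log axis, ordered by the WT mean and coloured by role; bars are the SD of 3 libraries. The upper panel is sperm, where Kif2c leads at 74.9 CPM per kb in WT and 169 in Xap5l KO, and the lower panel is testes, where Kif5b leads at 41.1 in WT and 53.4 in Xap5 cKO.

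In Xap5l KO sperm 3 kinesin genes were called up and none was called down. A gene was called at an adjusted p under 0.05 and a fold change above 2. Differences are KO minus WT, and SE is the standard error of a difference. The 3 genes were Kif2c, Kif2b and Kif18b, all of the spindle list, and they were 9.38% of the 32 kinesin genes tested, where 7.59% of all 20945 genes tested were called up and 1.27% were called down. Without the fold change threshold 4 kinesin genes passed upward (12.5%, against 9.02% of all genes) and none downward (3.07% of all genes). The shares called up thus lay close to those of all genes. No kinesin gene fell at an unadjusted p under 0.05 with a fold change above 2 in edgeR, and DESeq2 also called none down.

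Kif2c (chromosome 4, 117159639 to 117182639, minus strand, GRCm38) had counts of 14289, 11993 and 12106 in WT sperm against 25138, 33367 and 52224 in Xap5l KO sperm. Every KO library lay above every WT library. Scaled to library size, Kif2c went from 327 ± 93.4 to 739 ± 148 CPM (SD, n = 3), a difference of 1.18 on the log2 scale (SE 0.297, adjusted p = 0.0353 by edgeR's quasi-likelihood test). Kif2b (chromosome 11, 91575315 to 91577558, minus strand) had counts of 2613, 2415 and 1981 in WT against 6533, 8813 and 5999 in KO sperm, with no overlap. Its level was 59.8 ± 18.4 CPM in WT and 150 ± 42.6 CPM in KO sperm, a difference of 1.32 on the log2 scale (SE 0.303, adjusted p = 0.0267). Kif2c and Kif2b belong to the kinesins that do not walk but shorten microtubules from their ends.

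Kif18b, which controls the length of astral microtubules in mitosis, lies on chromosome 11 from 102905529 to 102925124, minus strand. It had counts of 200, 159 and 243 in WT sperm against 570, 1026 and 366 in KO sperm. The groups did not overlap, but KO replicate 3 lay much nearer to WT than the other KO libraries. The means were 5.03 ± 1.16 and 13.7 ± 6.52 CPM, a difference of 1.44 on the log2 scale (SE 0.378, adjusted p = 0.0387 by the same test). Each of the 3 calls was lost when any of WT replicate 2, WT replicate 3, KO replicate 1 and KO replicate 2 was dropped from the fit, and Kif18b lost its call without WT replicate 1 too. Over all 6 fits that each drop a library, KO replicate 3 included, the differences ran from 1.03 to 1.43 for Kif2c, 1.12 to 1.61 for Kif2b and 1.16 to 1.87 for Kif18b.

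The other 9 spindle kinesins were not called in sperm. Their log2 fold changes were 0.86 for Kif22 and 0.44 for Kif4, which bind chromosome arms, 0.80 for Kif18a, which aligns chromosomes, 0.72 for Kif23 and 0.72 for Kif14, which act in cytokinesis, 0.28 for Kif20a and 0.15 for Kif20b, which act there too, and 0.19 for Kif15 and 0.04 for Kif11, which push spindle poles apart. The median over the 12 spindle kinesins was 0.72, where that over all genes tested was -0.0833. Their summed level was 334 to 558 CPM in WT and 825 to 1040 CPM in KO libraries, most of it from Kif2c. Of 12 cell cycle genes of mitosis, 3 were called up (Plk1, Bub1 and Ccnb2), where 7.59% of all genes were, and none down. Aurka and Ccnb1 passed upward with 0.86 and 0.82 on the log2 scale, and Cdc20 (0.66) and Top2a (0.46) did not pass. Mki67, Cdk1, Bub1b, Aurkb and Ccna2 had negative values of -0.43, -0.35, -0.22, -0.13 and -0.05, none past the test. Without KO replicate 3 the count of kinesin genes called up was 6, since Kif18a, Kif22 and Kif27 were then called too, with log2 fold changes of 1.13, 1.02 and 1.03. Calls over all genes rose as well in that fit, from 1589 up of 20945 tested to 2402 up of 21449.

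Of the 6 kinesins of cilia and flagella, 1 passed the test in sperm and none was called. Kif27 had counts of 2011, 1799 and 1659 in WT sperm against 3277, 4824 and 5177 in KO sperm, with every KO library higher. Its level was 46.5 ± 13 CPM in WT and 89.8 ± 3.35 CPM in KO sperm, a difference of 0.95 on the log2 scale (SE 0.237, adjusted p = 0.0342 by edgeR's quasi-likelihood test), just under the fold change threshold. It no longer passed without WT replicate 2, WT replicate 3, KO replicate 1 or KO replicate 2. Kif9 had counts of 5985, 3554 and 3603 in WT against 4479, 5313 and 18115 in KO sperm, so that 1 KO library stood far above the other 5 and the groups overlapped. Its log2 fold change of 0.64 (standard error 0.467) did not pass, with an adjusted p of 0.354. With any single library dropped, it lay between 0.04 and 1.13. KO replicate 3, the high library, also had the lowest share of counts from mitochondrial genes, 10.5% against 18.6% to 27.4% in the other sperm libraries. Its counts were 54760 for Tnp1 and 113790 for Pgk2, against 17197 and 41594 in KO replicate 1 and 17651 and 57027 in KO replicate 2. For Smcp its 978906 counts lay between theirs. The log2 fold changes were 0.22 for Kif24, which holds back cilium growth at the centriole, 0.14 for Kif6, a motor of motile cilia, 0.07 for Kif19a, which limits cilium length, and -0.36 for Kif7, a Hedgehog regulator at the cilium tip.

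None of the 10 cargo transport kinesins tested in sperm passed. Their log2 fold changes ran from 0.92 for Kif5a, a neuronal heavy chain with only 29 to 64 counts in WT and 41 to 146 in KO libraries, to -0.48 for Kif1c. Between them lay 0.63 for Kif5c and -0.28 for Kif5b, the other heavy chains of conventional kinesin, 0.62 for Kif1b and 0.21 for Kif1a, which carry vesicles, 0.48 for Kif3c, a partner of Kif3a, 0.09 for Kif16b, which moves endosomes, and -0.32 and -0.37 for Kif13b and Kif13a, which carry membrane cargo. Kif1c had counts of 1729, 2833 and 3356 in WT against 1674, 2696 and 2404 in KO sperm, and in CPM all KO libraries were below all WT libraries (adjusted p = 0.137 by the same test). Among the remaining genes the log2 fold changes were 0.66 for Kif2a, 0.16 for Kif21b, -0.22 for Kif26b and -0.41 for Kif21a, none past the test. Kif12, with 0 to 4 counts in a library, and Kif26a, with 0 to 6, were too low to test.

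**Figure D2:**
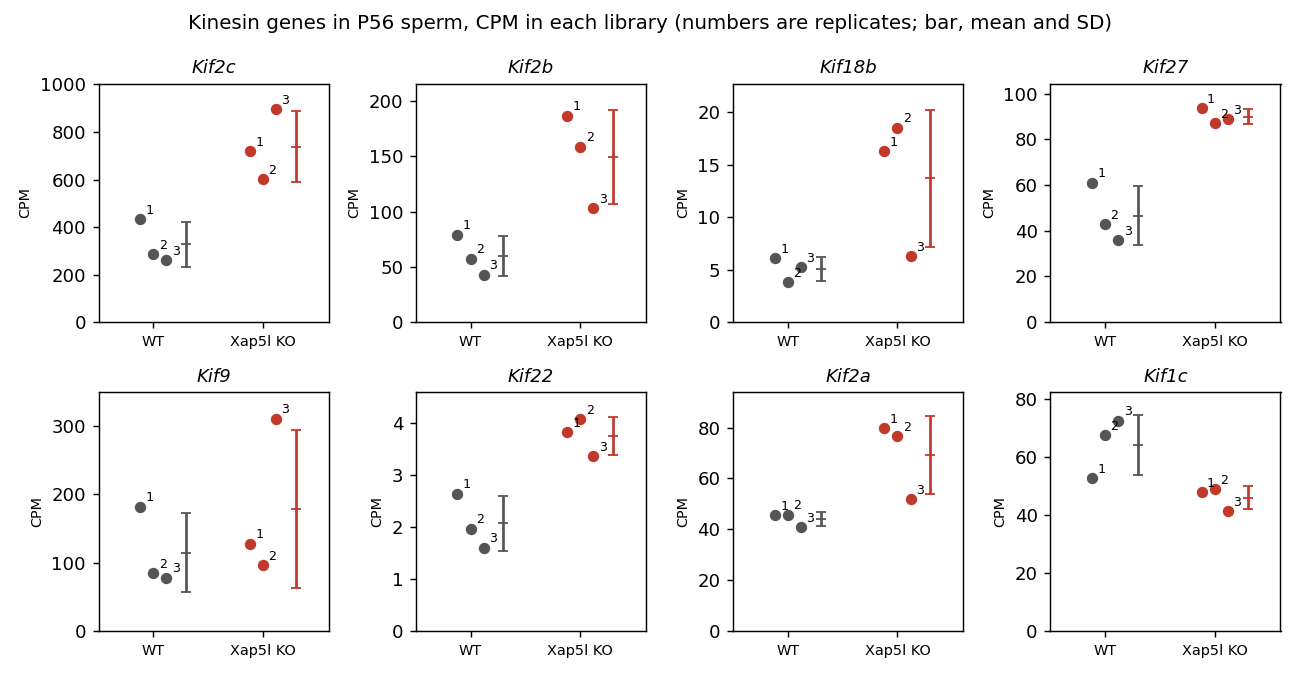
Level of 8 kinesin genes in each sperm library in CPM, with the replicate number beside each point; the bar beside each group is the mean and SD of 3 libraries. Kif2c, Kif2b, Kif18b and Kif27 passed the test and show no overlap, while in Kif9 a single KO library (replicate 3) stands above all others.

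In sperm the KO and WT libraries of a gene did not overlap in CPM for 12 of 32 kinesin genes (37.5%), with KO above WT in 10 and below in 2, against 38.3% of all genes tested. The log2 fold change was positive for 25 and negative for 7 genes, with a median of 0.249, and these counts were the same with RLE size factors and with library size alone. The summed kinesin level was 815 to 1150 CPM in WT and 1410 to 1800 CPM in KO libraries. Other marker lists moved in the same libraries, where over all genes 7.59% were called up and 1.27% down. Of the 6 round spermatid markers 4 were called up, and the sum of the list was 442 to 735 CPM in WT and 822 to 1040 CPM in KO. Tssk2 made up most of that sum (495 ± 152 and 760 ± 94 CPM), and its log2 fold change of 0.62 did not pass. Of the 6 pachytene markers 2 (Ldhc and Hspa2) were called up, with sums of 1200 to 2050 and 2210 to 2960 CPM. The largest part of these sums was Pgk2 (1030 ± 359 and 1390 ± 494 CPM). Pgk2 and Ccna1 had log2 fold changes of 0.44 and 0.64, and Piwil1 and Mybl1 had -0.97 and -0.17, none past the test. The summed leukocyte markers were 4320 to 4890 CPM in WT and 2530 to 3130 CPM in KO. Most of the sum was Cd52 (3990 ± 308 and 2520 ± 433 CPM), whose log2 fold change of -0.66 did not pass. Of the 7 markers 1 was called down (S100a9) and Tyrobp passed downward too, while S100a8 had a value of 0.48 that did not pass. The summed Sertoli cell markers were 639 to 760 CPM in WT and 1050 to 1330 CPM in KO, nearly all of it Clu (687 ± 58.8 and 1200 ± 140 CPM), while the list had a median of -0.863 on the log2 scale, Cldn11 was called down and none was called up. Of the 8 sperm and elongating spermatid markers 1 was called up (Akap4, 1.09 on the log2 scale) and none down, with a median of 0.604. Their sums overlapped (52400 to 130000 CPM in WT and 44900 to 83900 CPM in KO) and came mostly from Smcp and Odf1, whose values of -0.97 and -0.69 did not pass. The sums of WT and KO libraries overlapped for erythroid markers (2930 to 14700 and 1090 to 3680 CPM) and epididymal markers (5250 to 7290 and 3960 to 5310 CPM). The part of these cell types in the kinesin values was not tested.

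In Xap5 cKO testes 11 kinesin genes were called down and none was called up. They were 32.4% of the 34 kinesin genes tested, where 10.9% of all 16821 genes tested were called down and 4.15% were called up. Without the fold change threshold 20 kinesin genes passed downward (58.8%, against 28.1% of all genes) and 5 upward (14.7%, against 25%). The libraries of both groups did not overlap in CPM for 26 of 34 kinesin genes (76.5%), with cKO below WT in 21 and above in 5, against 62.3% of all genes. The median log2 fold change was -0.602, where that of all genes was -0.00825. No kinesin gene rose at an unadjusted p under 0.05 with a fold change above 2 in edgeR, and DESeq2 called the same numbers, 11 down and none up.

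The largest fall was that of Kif9, a motor of the flagellum (chromosome 9, 110476958 to 110525179, plus strand). It had counts of 1672, 1727 and 833 in WT testes against 148, 158 and 145 in cKO testes. The cKO libraries were all near each other and far below WT, while WT replicate 3 lay between. The level was 40.1 ± 14.7 CPM in WT and 4.55 ± 0.126 CPM in cKO testes (SD, n = 3), a difference of -3.14 on the log2 scale (SE 0.278, adjusted p = 3.47e-05 by edgeR's quasi-likelihood test). This was 8.81-fold lower.

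Kif27 (chromosome 13, 58287502 to 58359122, minus strand) had counts of 1970, 2329 and 1583 in WT against 432, 521 and 518 in cKO testes, a difference of -1.91 on the log2 scale (SE 0.15, adjusted p = 2.33e-05 by the same test). Kif24 (chromosome 4, 41390745 to 41464887, minus strand) had counts of 2470, 2830 and 2132 in WT against 572, 619 and 711 in cKO testes, a difference of -1.87 on the log2 scale (SE 0.13, adjusted p = 1.5e-05). Neither gene overlapped between groups. Of the other kinesins of cilia, Kif7 and Kif6 passed with smaller falls, of -0.92 and -0.69 on the log2 scale. Kif19a, with 31 to 113 counts in WT and 52 to 73 in cKO libraries, had a log2 fold change of -0.17 and did not pass. The median over the 6 genes was -1.39, and their sum was 162 to 230 CPM in WT and 58.3 to 64.4 CPM in cKO libraries.

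WT replicate 3 had the lowest WT counts of Kif9, Kif27, Kif24 and Kif6. It also had 197 counts of Fam50b against 532 and 539 in the other WT libraries, and 7653 counts of the pachytene marker Piwil1 against 15140 and 17286. Without it the log2 fold changes were -3.42 for Kif9, -2.05 for Kif27, -1.98 for Kif24 and -0.88 for Kif6.

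The promoters of Kif9, Kif24 and Kif27, the kinesins of cilia called down in testes, are shown with that of Kif2c. Of the 12 spindle kinesins 8 were called down in the same libraries, so falling was not particular to those of cilia. RefSeq promoters of GRCm38.p6, from 250 bases before to 50 bases after a start, were at hand for 28 of the 35 genes. The letters GTTGCCAT, those of the X-box bound by RFX factors of cilium genes, were searched on both strands and are in capitals. Each sequence is 300 bases, read 5′ to 3′ along the gene. Kif9 lies at chr9:110476744-110477043 on the plus strand, Kif24 at chr4:41464799-41465098 and Kif27 at chr13:58354898-58355197, both on the minus strand. Kif2c, the kinesin gene with the highest level in sperm, lies at chr4:117178723-117179022 on the minus strand.
Kif9: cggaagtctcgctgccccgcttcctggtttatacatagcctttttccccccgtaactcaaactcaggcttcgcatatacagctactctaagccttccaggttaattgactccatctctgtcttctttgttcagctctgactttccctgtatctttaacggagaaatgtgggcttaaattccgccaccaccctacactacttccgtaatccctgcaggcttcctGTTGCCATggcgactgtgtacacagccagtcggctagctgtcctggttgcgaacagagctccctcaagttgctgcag
Kif24: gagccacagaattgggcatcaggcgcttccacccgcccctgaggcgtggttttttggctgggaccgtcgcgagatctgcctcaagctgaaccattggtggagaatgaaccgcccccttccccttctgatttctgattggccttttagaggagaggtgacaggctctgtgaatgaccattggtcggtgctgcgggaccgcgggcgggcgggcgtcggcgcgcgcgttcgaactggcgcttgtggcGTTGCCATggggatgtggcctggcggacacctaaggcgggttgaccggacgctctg
Kif27: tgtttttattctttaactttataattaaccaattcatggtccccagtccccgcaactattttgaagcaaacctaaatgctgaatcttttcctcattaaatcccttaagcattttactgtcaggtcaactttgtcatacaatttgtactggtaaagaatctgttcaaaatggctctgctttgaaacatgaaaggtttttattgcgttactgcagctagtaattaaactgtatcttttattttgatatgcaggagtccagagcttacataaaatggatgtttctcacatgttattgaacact
Kif2c: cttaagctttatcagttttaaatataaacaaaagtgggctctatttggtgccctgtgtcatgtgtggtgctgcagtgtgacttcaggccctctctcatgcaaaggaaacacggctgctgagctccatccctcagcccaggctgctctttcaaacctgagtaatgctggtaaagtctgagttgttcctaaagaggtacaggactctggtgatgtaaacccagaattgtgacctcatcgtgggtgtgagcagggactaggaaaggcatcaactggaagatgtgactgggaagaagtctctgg

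Kif9 and Kif24 held the letters near the start, and Kif27 and Kif2c did not hold them in this window. The windows of Kif27 and Kif2c lie inside the GENCODE gene, past its outermost start. Over the 28 genes, 4 (14.3%) held them in at least 1 promoter (Kif9, Kif24, Kif16b and Kif2a), where 416 of 27025 genes of the whole RefSeq table did (1.54%). Of the 10 genes called down in testes that had a promoter, 2 held them, Kif9 and Kif24. Kif16b and Kif2a are on other role lists and were called in neither tissue. GGGCGGGG, a GC-rich stretch that the study named in its motif search, was found on either strand in 9 of 28 kinesin genes (32.1%) and in 5285 of all 27025 genes (19.6%). It was in 1 of those 10 called genes, Kif20b, and in none of the 3 called up in sperm. The median GC content was 62.7% in the kinesin promoters and 52.7% in all promoters. The letters describe these windows and say nothing of a factor bound there.

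Of the 12 spindle kinesins 8 were called down in testes (10.9% of all genes were) and 11 passed downward (28.1% of all genes did). Their median log2 fold change was -1.11. Kif15 and Kif11 drive spindle poles apart. Kif15 (chromosome 9, 122951046 to 123018733, plus strand) had counts of 2399, 3053 and 2527 in WT against 606, 790 and 603 in cKO testes, a difference of -1.9 on the log2 scale (SE 0.122, adjusted p = 1.16e-05 by edgeR's quasi-likelihood test). Kif11 (chromosome 19, 37376403 to 37421859, plus strand) had counts of 2210, 2384 and 2416 in WT against 918, 851 and 706 in cKO testes, a difference of -1.4 on the log2 scale (SE 0.112, adjusted p = 2.44e-05). In both genes every cKO library was below every WT library.

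The kinesins of cytokinesis followed. Kif20a had counts of 4114, 4885 and 4204 in WT against 1436, 1624 and 1680 in cKO testes, a difference of -1.38 on the log2 scale (adjusted p = 1.01e-05 by the same test). Kif14 (chromosome 1, 136466343 to 136531511, plus strand) had counts of 817, 960 and 1123 in WT against 402, 388 and 319 in cKO testes, a difference of -1.29 on the log2 scale (adjusted p = 0.000137). Kif20b (chromosome 19, 34922361 to 34975745, plus strand) had counts of 2389, 2964 and 2942 in WT against 1177, 1230 and 1286 in cKO testes, a difference of -1.07 on the log2 scale (adjusted p = 2.63e-05). None of the 3 overlapped between groups. Kif23, part of the centralspindlin complex, passed with a smaller fall of -0.66.

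The microtubule end regulators Kif2c, Kif18a and Kif18b were also lower. Kif2c had counts of 1740, 2114 and 1925 in WT against 700, 812 and 691 in cKO testes, a difference of -1.29 on the log2 scale (SE 0.0969, adjusted p = 1.92e-05 by the same test). Kif18a (chromosome 2, 109280738 to 109341747, plus strand) had counts of 1363, 1421 and 1619 in WT against 642, 687 and 528 in cKO testes, a difference of -1.15 on the log2 scale (adjusted p = 8.1e-05). Kif18b had counts of 746, 1108 and 1173 in WT against 409, 466 and 508 in cKO testes, a difference of -1.03 on the log2 scale (adjusted p = 0.000756). In none of these did WT and cKO libraries overlap. Kif18b lay just past the fold change threshold and lost its call without WT replicate 2, WT replicate 3 or cKO replicate 1, with log2 fold changes of -0.98, -0.92 and -0.96.

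The chromosome arm kinesins Kif22 and Kif4 passed with log2 fold changes of -0.67 and -0.51. Kif2b, near the top of the kinesin genes in sperm, had counts of 6, 15 and 12 in WT testes against 0, 11 and 10 in cKO testes, a difference of -0.55 on the log2 scale (SE 0.958) that did not pass. The sum of the spindle kinesins was 635 to 701 CPM in WT and 301 to 316 CPM in cKO libraries. All 12 cell cycle genes of mitosis passed downward as well, 5 of them called, where 28.1% of all genes passed downward and 10.9% were called. Their sum was 1550 to 1600 CPM in WT and 713 to 789 CPM in cKO libraries.

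**Figure D3:**
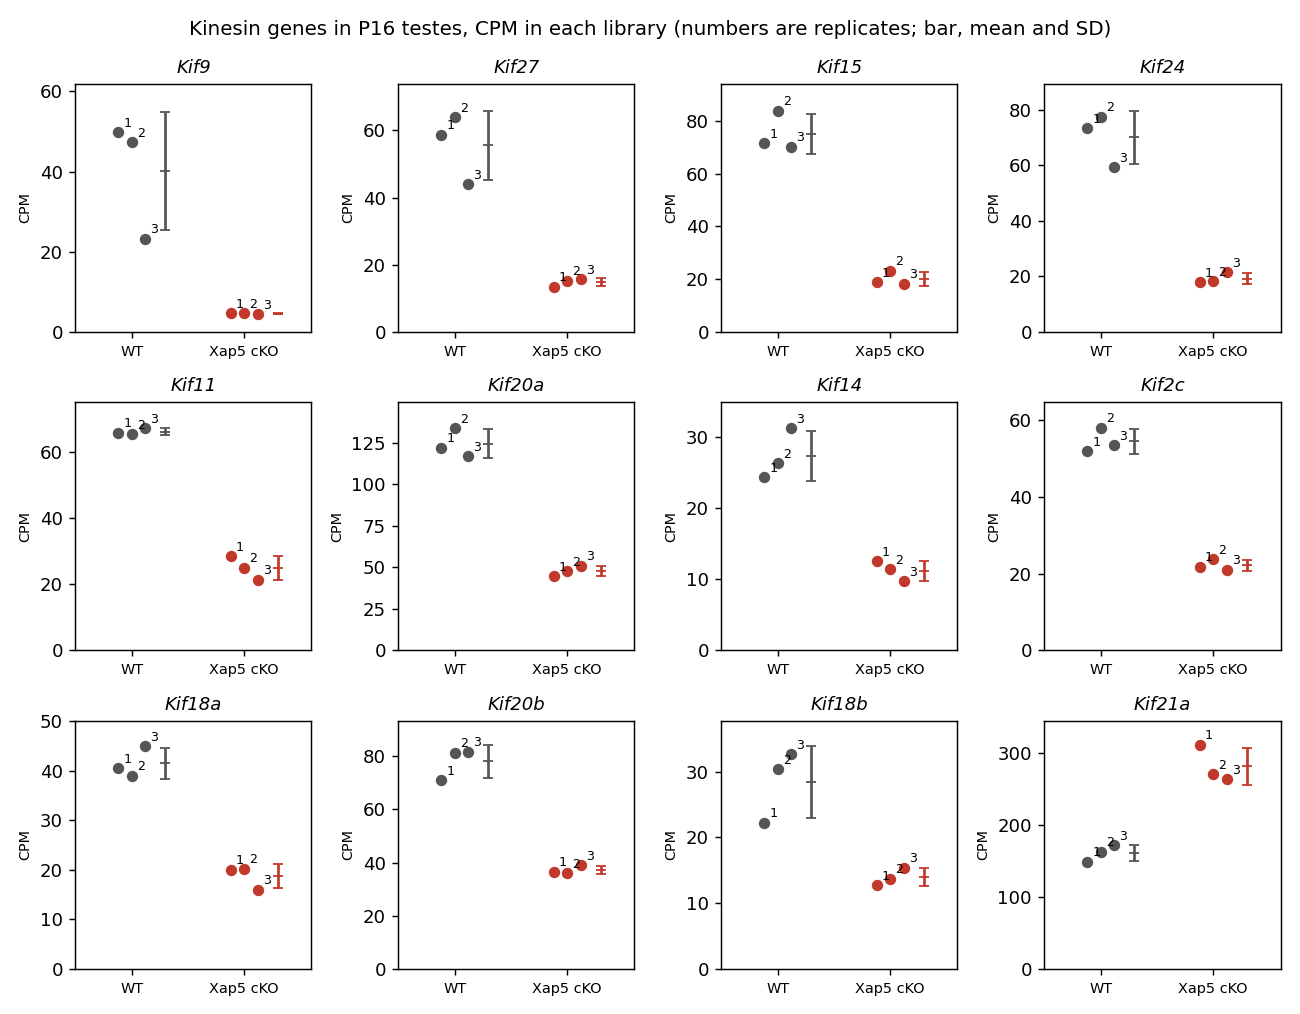
Level of the 11 kinesin genes called down in Xap5 cKO testes, and of Kif21a, which rose below the fold change threshold, in each library in CPM; numbers are replicates and the bar beside each group is the mean and SD of 3 libraries. WT and cKO libraries do not overlap in any panel, and in Kif9, Kif27 and Kif24 WT replicate 3 is the lowest WT library.

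Of the 11 cargo transport kinesins tested in testes 4 passed upward, 3 passed downward and none was called, with a median log2 fold change of 0.0547. Of all genes 25% passed upward and 28.1% downward, so these counts lay near the background. Kif5b, the ubiquitous heavy chain, had counts of 10384, 11157 and 13276 in WT against 14742, 13987 and 13508 in cKO testes, a difference of 0.38 on the log2 scale (SE 0.0831, adjusted p = 0.0043 by edgeR's quasi-likelihood test). Kif1a, a motor of synaptic and dense core vesicles, had counts of 1782, 2219 and 2752 in WT against 3773, 3413 and 4156 in cKO testes, a difference of 0.85 on the log2 scale (SE 0.137, adjusted p = 0.00075). Both had every cKO library above every WT library. Kif5c and Kif13a also passed upward, with log2 fold changes of 0.78 and 0.67. Kif5a, Kif16b and Kif1b passed downward, with -0.67, -0.41 and -0.30. The values of Kif1c (-0.08), Kif3c (-0.05), Kif13b (0.05) and Kif28 (0.86, with 2 to 12 counts in WT and 2 to 23 in cKO libraries) did not pass. Without WT replicate 3, Kif1a was called up with a log2 fold change of 1.01.

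Among the remaining genes Kif21a had counts of 4993, 5941 and 6205 in WT against 10049, 9220 and 8690 in cKO testes. Every cKO library was higher, with 161 ± 12 CPM in WT and 282 ± 26.3 CPM in cKO testes, a difference of 0.81 on the log2 scale (SE 0.0825, adjusted p = 6.74e-05 by the same test). Kif2a went the other way, with counts of 5242, 4970 and 4690 in WT against 2291, 2721 and 2651 in cKO testes, and its log2 fold change of -0.87 passed. Kif21b, Kif26a and Kif26b had log2 fold changes of -0.21, -0.08 and -0.5 and did not pass. Kif12 had 3 counts in 1 WT library and 0 in the others and was not tested.

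The summed kinesin level was 2030 to 2120 CPM in WT and 1740 to 1850 CPM in cKO testes. Markers of germ cell stages and of somatic cells moved in the same libraries. Over all genes 10.9% were called down and 4.15% up, and 28.1% passed downward and 25% upward. Of the 6 pachytene markers 5 were called down, with sums of 927 to 1820 CPM in WT and 209 to 277 CPM in cKO, and of the 6 leptotene and zygotene markers 5 were called down, with sums of 1050 to 1230 and 517 to 672 CPM. Of the 7 spermatogonia markers 6 passed downward and Gfra1 upward (0.56 on the log2 scale), with sums of 664 to 737 and 458 to 493 CPM. Of the 7 Sertoli cell markers 6 passed upward, with sums of 4860 to 5310 CPM in WT and 8430 to 10100 CPM in cKO. Of the Leydig cell markers 3 of 6 were called up (193 to 336 and 389 to 737 CPM), of the peritubular myoid markers 3 of 4 passed upward (471 to 607 and 680 to 730 CPM) and of the leukocyte markers 3 of 7 were called up (61.1 to 90.6 and 134 to 178 CPM). The part of cell makeup in the kinesin values was not tested.

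The partners of kinesins, a list of 22 light chains, adaptors, regulators and motors with other names, were measured in the same fits. In Xap5l KO sperm 1 of 22 was called up (7.59% of all genes were), Mapk8ip1, a scaffold that binds conventional kinesin, with counts of 357, 296 and 369 in WT against 788, 1235 and 993 in KO (log2 fold change 1.26, adjusted p = 0.0162 by edgeR's quasi-likelihood test). Kifap3, the adaptor of kinesin-2, and Stard9, a centrosomal kinesin, passed with log2 fold changes of 0.92 and 0.90, and none passed downward. In Xap5 cKO testes 1 of 22 was called down (10.9% of all genes were), Prc1, which bundles microtubules of the midzone and binds Kif4, with counts of 5093, 5391 and 4607 in WT against 1709, 1700 and 1600 in cKO (log2 fold change -1.5, adjusted p = 8.8e-06). Altogether 15 of the 22 passed downward, against 28.1% of all genes, among them the kinetochore motor Cenpe with -0.95 and Kifap3 with -0.64. The mitochondrial adaptors Trak1 and Trak2 passed upward, with log2 fold changes of 0.69 and 0.29.

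Side by side, 32 kinesin genes were tested in both comparisons, which share no libraries. The log2 fold change was positive in Xap5l KO sperm and negative in Xap5 cKO testes for 23 genes, the reverse for 4 (Kif5b, Kif13a, Kif13b and Kif21a), positive in both for 2 (Kif1a and Kif5c) and negative in both for 3 (Kif1c, Kif7 and Kif26b). These signs include genes that did not pass in either tissue. The matching share over all genes was not computed, so the counts cannot be read as particular to kinesin genes. Kif2c and Kif18b were called in both comparisons, up in sperm and down in testes, and Kif27 passed in both, also up in sperm and down in testes. In sperm Kif27 did not pass with library size alone as the scaling (adjusted p = 0.0524 by edgeR). Kif9, Kif11, Kif15 and Kif24 fell in testes with log2 fold changes of -3.14, -1.4, -1.9 and -1.87, and their sperm values of 0.64, 0.04, 0.19 and 0.22 did not pass.

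**Figure D4:**
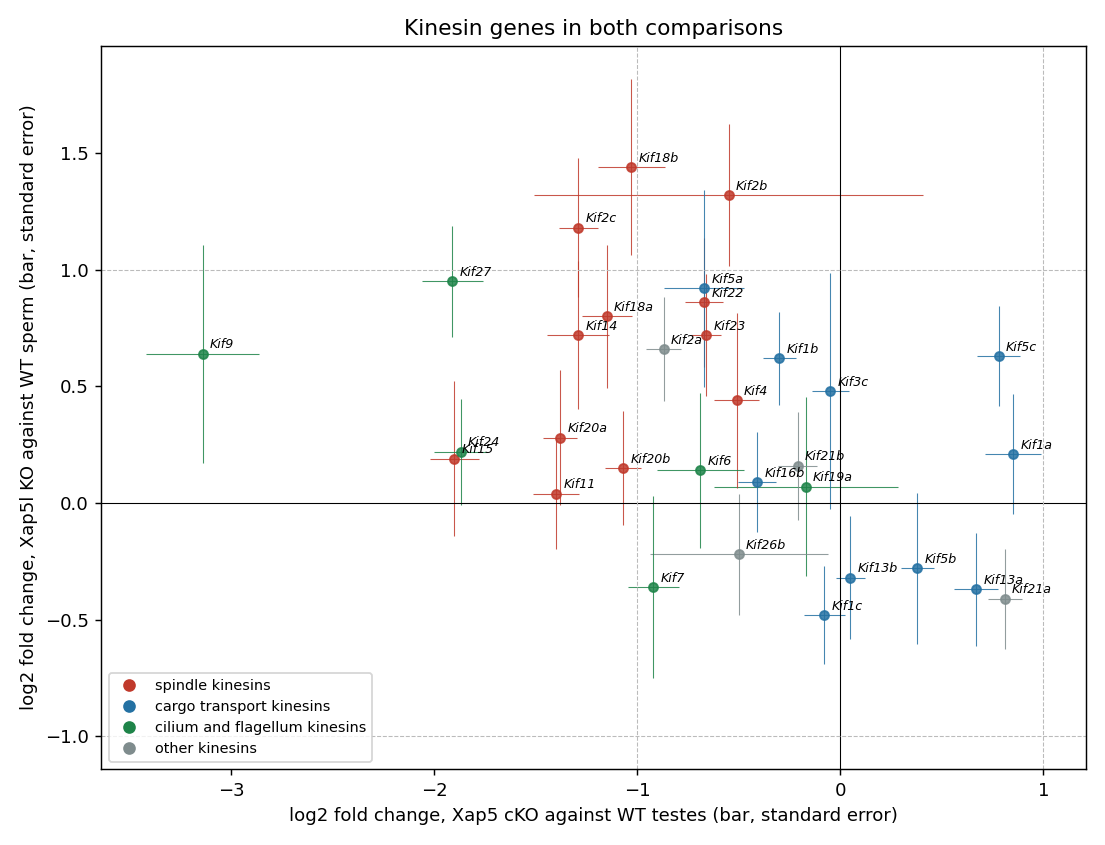
Log2 fold change of the 32 kinesin genes tested in both tissues, with Xap5 cKO against WT testes on the horizontal axis and Xap5l KO against WT sperm on the vertical axis; bars are standard errors, dashed lines mark a fold change of 2 and colours give the role. 23 genes lie in the upper left, where the testis value is below 0 and the sperm value above 0, with Kif9 farthest to the left at -3.14 and Kif18b highest at 1.44. The matching share over all genes was not computed.

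Some counts could include reads of neighbouring or similar genes, since neither strand use nor the treatment of multi-mapping reads is given in the sources used here. Kif18a, Kif20a, Kif22, Kif26b, Kif27, Kif2a, Kif3c, Kif4, Kif5b, Kif6 and Kif7 share exonic bases with a gene on the other strand, Kif1c and Kif27 with a microRNA gene and Kif28 with Ahctf1 on the same strand, and Kif4 and Kif22 each have a pseudogene entry in the sperm table. The testis table also listed Kif11, Kif1b and Kif1c again, as entries with an added number. Those entries had log2 fold changes of -1.29, -0.54 and 0.21 in testes, and with the entries of a gene summed 11 kinesin genes were still called down and none up.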

How the data were processed

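The 12 RNA-seq libraries were assigned to 4 groups of 3 by the sample labels. Libraries were made from poly(A) RNA and sequenced as paired ends, and reads were mapped to GRCm38/mm10. The authors deposited raw gene counts, whole numbers with no scaling, separately for each tissue. The submitters' processing notes name FastQC 0.11.2, Trimmomatic 0.36, HISAT2 2.1.0 and DESeq2 1.12.4. The counting tool is not given in the sources used here. The kinesin genes and all gene lists were chosen with earlier results of these data known.

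Each tissue was fitted alone over all genes with edgeR's quasi-likelihood test (filterByExpr, TMM, genotype as the only term) and Benjamini-Hochberg adjustment over all genes tested. Genes passed at an adjusted p under 0.05 and were called when the fold change was also above 2. An exact permutation test of 1 gene in groups of 3 gives p = 0.1 at the least. Values in CPM used TMM library sizes, and exon lengths came from the GENCODE annotation of GRCm38. Replicates varied with a biological coefficient of variation of 0.287 (sperm) and 0.174 (testes). Every called kinesin gene was named with its counts, every other kinesin gene with its log2 fold change, and every called partner gene. Repeated names, 94 of them among the sperm entries, were kept apart. The alternatives were DESeq2, other filters, scaling by library size alone or by RLE, no fold change threshold, a replicate block, summed entries and leaving out each library. The fits were tested on simulated data. Protein features were not analysed here. Software was R 4.3.3 with edgeR 4.0.16, DESeq2 1.42.0, limma 3.58.1 and GenomicRanges 1.54.1, and Python 3.11.15, pandas 2.3.3 and matplotlib 3.10.9.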

Additional observations from a re-analysis of the deposited data

How the results depend on the processing

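In sperm the kinesin genes called up numbered 3, and between 0 and 6 with a single library dropped: 0 without WT replicate 2, WT replicate 3, KO replicate 1 or KO replicate 2, 4 without WT replicate 1 and 6 without KO replicate 3. The calls over all genes moved with the same libraries, from 1589 up to 1 up without WT replicate 2, WT replicate 3 or KO replicate 2. They were 483 up without KO replicate 1, 1912 up without WT replicate 1 and 2402 up without KO replicate 3. Without WT replicate 1 the kinesin genes had a median of 0.559 on the log2 scale. With DESeq2 8 kinesin genes passed upward in sperm, where 4 did in edgeR. DESeq2 also called more of all genes up, 2140 against 1589 in edgeR. Without a filter on low counts 4 were called up, Kif27 among them with a log2 fold change of 1.01, and the median of all genes was 0.131. In testes 10 to 11 were called down, 18 to 20 passed downward and 0 to 1 were called up when each library was left out, and without the fold change threshold 20 were called down and 5 up. The other filters, scalings and DESeq2 left 11 called down in testes and 3 called up in sperm. The cause of these shifts was not tested.

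Replicate numbers are shared between WT and knockout groups. For same-numbered libraries, the correlations of deviations from the group means were 0.17, -0.0191 and -0.135 in sperm. In testes they were 8.08e-05, -0.0376 and -0.0452. Differently numbered sperm pairs ran from -0.196 to 0.26. Both replicate 1 sperm libraries, however, had lower TMM factors (0.821 in WT and 0.808 in KO) than every other sperm library. Whether the numbers pair the sperm samples was thus not settled, and the main fits did not pair them. With the replicate number as a block 1 kinesin gene was called up in sperm (Kif2b), Kif18b had a log2 fold change of 1.33 with an adjusted p of 0.0745 and Kif2c had 1.19 with 0.0577, and Kif27 no longer passed, with 0.98 and an adjusted p of 0.051 (edgeR's quasi-likelihood test). In testes the block left 11 called down.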
